A study of Rattus norvegicus with 8 samples.

Results

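The genes described here are Acta2, Tagln, Cnn1 and Vim, which encode cytoskeletal proteins of smooth muscle cells, myofibroblasts and other cells that are not cardiac myocytes. They were chosen by a list of 4 Ensembl identifiers, named with earlier results of these data known, and all 4 were found among the 32285 identifiers of the count table. All 4 also passed the filter on low counts, which left 16313 genes for testing. RNA came from the sinoatrial node, the heart's pacemaker tissue, of the Dahl/Salt Sensitive Rat (SS/JrHsdMcwiCrl), an inbred strain whose blood pressure climbs on a salty diet. Control rats received a diet with 0.4% NaCl and HFpEF rats (a model of heart failure with preserved ejection fraction) one with 8% NaCl, each for 11 weeks, with 4 libraries per group. Both groups share the strain, no age is given, and salt intake, hypertension and heart failure move together in this design, so that their effects cannot be told apart. The labels do not tie each library to its own rat, so p-values here reflect only how far these libraries differ, and part of that may be technical. Total expected counts ran from 31774820 to 38889395 per library, and 3 counts, the limit that a count of 0 allows, correspond to 0.0771 to 0.0944 CPM (counts scaled to a common library total), which covers counting error only.

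Acta2 (ENSRNOG00000058039) encodes alpha-smooth muscle actin, the thin-filament actin of vascular smooth muscle, which fibroblasts also switch on when they become contractile myofibroblasts. Tagln (ENSRNOG00000017628) encodes transgelin and Cnn1 (ENSRNOG00000028015) encodes calponin, related actin-binding proteins of the same contractile apparatus. Genes of this kind are classically controlled by serum response factor, which binds the CArG box, with myocardin-family coactivators, and TGF-beta signalling raises them in fibroblasts. Vim (ENSRNOG00000018087) encodes vimentin, an intermediate filament protein of fibroblasts, endothelial cells, smooth muscle and leukocytes, and serves as a broad marker of cells that are not myocytes. The names come from the list of identifiers. The table itself carries no names, so the pairing of name and identifier was not checked against the files, and markers of the node or of single cell types were not analysed here.

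The stretches of 250 bases before the start of Acta2 and of Vim are shown because they differ in the letters linked to this control. They were taken by symbol from RefSeq on build GRCr8, which is not the rn6 build of the counts, and are written from the far end towards the gene. Capitals mark CArG-like matches and the letters TATAA.
Acta2, chr1:241172504-241172753, minus strand: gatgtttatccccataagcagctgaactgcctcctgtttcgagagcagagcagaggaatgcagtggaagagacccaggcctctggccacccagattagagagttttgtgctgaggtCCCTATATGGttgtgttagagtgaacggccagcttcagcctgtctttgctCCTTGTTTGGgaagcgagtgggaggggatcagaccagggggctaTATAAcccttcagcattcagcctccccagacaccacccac
Vim, chr17:81577011-81577260, plus strand: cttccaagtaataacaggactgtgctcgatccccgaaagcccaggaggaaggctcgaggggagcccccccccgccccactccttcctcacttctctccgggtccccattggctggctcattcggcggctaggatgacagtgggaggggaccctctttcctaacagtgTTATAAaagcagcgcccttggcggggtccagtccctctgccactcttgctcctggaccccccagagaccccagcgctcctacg

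No promoter window was at hand for Tagln, so Tagln was not searched. The strict CArG box, with a core made only of A and T, was matched in none of the windows of Acta2, Cnn1 and Vim when both strands were searched. It occurs in 1.5% of 33469 rat promoter windows of this length. A CArG box with 1 G or C in its core has at least 1 match in 6.84% of windows, and the share with 2 was not computed. Acta2 held 2 such matches, CCCTATATGG from 134 to 125 and CCTTGTTTGG from 84 to 75 bases before the start, and Cnn1 and Vim held 0. Acta2 and Vim each carried TATAA, which 24% of windows hold, and Cnn1 did not. CATTCC, the core letters of the motif bound by TEAD factors, was present in Acta2 on the opposite strand and occurs in 12.1% of windows. These matches describe the letters of the windows and are not evidence of binding. Bases outside the windows were not searched.

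In the HFpEF node Vim lay above every Control library in 3 of 4 libraries, and each of the smooth muscle genes Acta2, Tagln and Cnn1 did so in 1 of 4. For each of these smooth muscle genes that library was HFpEF replicate 2, which held the highest value in 19.1% of all tested genes. The shares of all tested genes with 3 of 4 and with 1 of 4 HFpEF libraries above every Control library were not computed. These counts therefore do not set Vim apart from the smooth muscle genes. The mean was higher in HFpEF than in Control for 4 of 4 genes, where 49.1% of tested genes had a log2 fold change above 0. Without HFpEF replicate 2 the log2 fold change was above 0 in 3 of 4. In the test across all genes (edgeR quasi-likelihood test, two-sided, Benjamini-Hochberg adjusted p under 0.05) 0 of 4 passed, where 1.94% of the 16313 tested genes did. At an unadjusted edgeR p under 0.05 the count was 1 of 4, Vim, where 19.6% of tested genes lay. DESeq2 called 1 of 4, again Vim, where it called 7.65% of genes, and limma-voom called 0 of 4, where it called 1.37%. The median log2 fold change of the 4 genes was 0.31, against 0 over all tested genes. The groups overlapped in 4 of 4 genes, while they did not overlap in 12.5% of tested genes. In whole tissue, more cells of a type and more RNA per cell cannot be told apart.

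**Figure D1:**
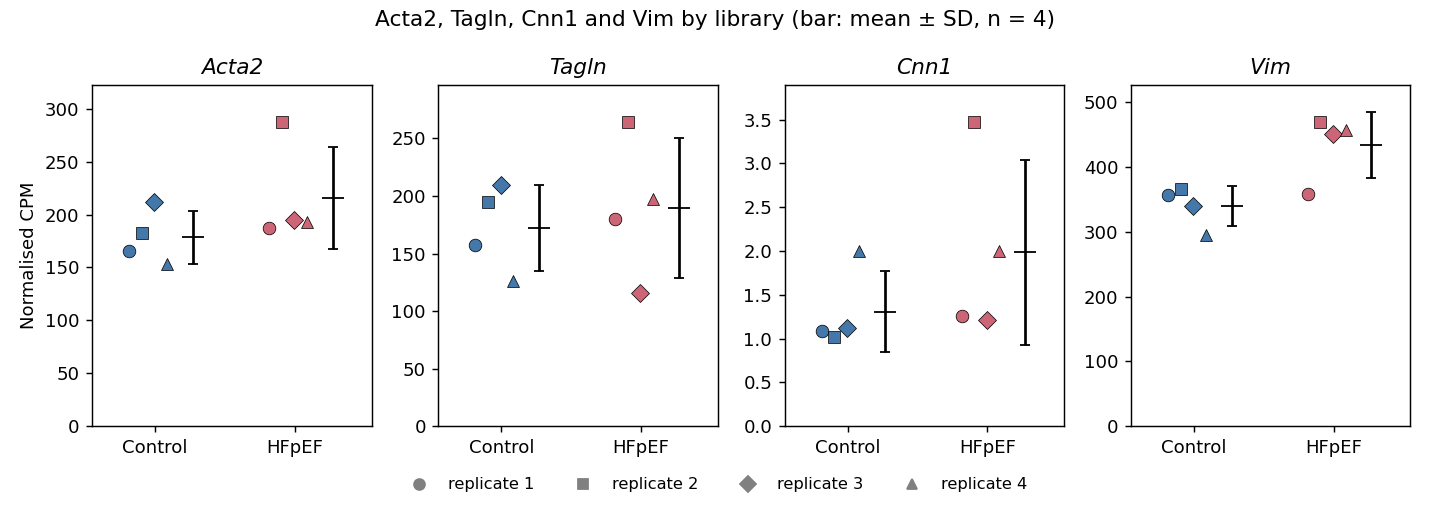
Normalised CPM of Acta2, Tagln, Cnn1 and Vim (vertical axes, each from 0) in the Control (blue) and HFpEF (red) libraries; each symbol is a library and the bars show mean ± SD, n = 4. HFpEF replicate 2 is the highest of the 8 libraries in all 4 panels, and in the Vim panel 3 of the 4 HFpEF libraries lie above every Control library.

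Acta2, the actin of smooth muscle cells and myofibroblasts, stood at 166, 182, 212 and 153 normalised CPM in Control replicates 1 to 4. In HFpEF replicates 1 to 4 it stood at 187, 288, 195 and 193. HFpEF replicate 2 was far above the rest, and the other HFpEF libraries lay within the Control range. The mean of the 4 libraries was 178 ± 25.4 (SD) in Control, against 216 ± 48.2 (SD) in HFpEF. The log2 fold change was 0.27 with a 95% interval of -0.08 to 0.63, and the edgeR adjusted p was 0.374. An exact two-sided permutation test over the 70 ways to assign the libraries gave p = 0.2, where 0.0286 is the smallest p this design allows.

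HFpEF replicate 2 held Acta2 at 1.61 times the Control mean, and the other HFpEF libraries at 1.05 to 1.09 times. Without that library the HFpEF mean was 192 ± 3.97 (SD, n = 3). The log2 fold change was then 0.11, in place of 0.27 (edgeR adjusted p = 0.672). HFpEF replicate 2 also had the fewest counts of the 8 libraries, and it held the highest value in 19.1% of all tested genes and the lowest in 19.2%, the largest shares of any library. The part of these library-wide differences in the result for Acta2 was not tested.

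Tagln, which encodes the actin cross-linker transgelin, stood at 157, 195, 209 and 126 normalised CPM in Control replicates 1 to 4. In HFpEF replicates 1 to 4 it stood at 180, 265, 116 and 197. The HFpEF libraries reached beyond the Control range at both ends, with HFpEF replicate 2 the highest and HFpEF replicate 3 the lowest of all 8. Control averaged 172 ± 37.5 and HFpEF 189.6 ± 61.1 (SD over 4 libraries). On the log2 scale the fold change was 0.14, with a 95% interval of -0.40 to 0.69 (edgeR adjusted p = 0.796). The exact permutation p was 0.743. Without HFpEF replicate 2 the sign of the difference turned, to -0.06 on the log2 scale (edgeR adjusted p = 0.926), without Control replicate 4 the log2 fold change was 0.02, and without HFpEF replicate 3 it was 0.32.

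Of the 4 genes, Tagln varied most among libraries when set against genes of its own level. Its within-group SD was 0.42 on the log2 scale, larger than in 96.6% of the 1296 genes with a mean CPM within a factor of 2 of its own. For Acta2 the SD was 0.25, larger than in 88.7% of 1164 such genes, for Cnn1 it was 0.59, larger than in 84.5% of 2489, and for Vim it was 0.16, larger than in 69.2% of 448. Counting error was small beside this spread: the coefficient of variation from counting alone was at most 1.61% for Tagln, against 21.8% between Control libraries and 32.2% between HFpEF libraries. Tagln was also the only gene of the 4 with expected counts that were not whole, in 5 of 8 libraries, which means that RSEM divided some reads between it and other genes there. In HFpEF replicate 3, its lowest library, the count was whole.

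The identifier listed as Cnn1, for the smooth muscle protein calponin, rested on few counts. It had 40, 38, 43 and 72 expected counts in Control replicates 1 to 4 and 46, 110, 40 and 73 in HFpEF replicates 1 to 4, while Tagln had at least 3836 in every library. Transcript lengths were not used, so these counts do not compare the levels of the genes, and the name rests on the list alone. In normalised CPM the values were 1.08, 1.02, 1.13 and 2.0 in Control and 1.26, 3.48, 1.21 and 1.99 in HFpEF. Control replicate 4 and HFpEF replicates 2 and 4 were high, and the other 5 libraries lay together between 1.02 and 1.26.

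Cnn1 averaged 1.31 ± 0.466 CPM in Control and 1.99 ± 1.06 CPM in HFpEF (SD over 4 libraries). The log2 fold change of 0.60 was the largest of the 4 genes and also the least precise, with a 95% interval of -0.26 to 1.46 (edgeR adjusted p = 0.425, exact permutation p = 0.2). Counting error alone gave a coefficient of variation of 9.53% to 16.2% per library, against 35.6% between Control and 53.2% between HFpEF libraries. The log2 fold change was 0.19 without HFpEF replicate 2 and 0.88 without Control replicate 4 (edgeR adjusted p = 0.811 and 0.274).

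Vim, which encodes the intermediate filament protein vimentin, stood at 357, 366, 340.4 and 296 normalised CPM in Control replicates 1 to 4. In HFpEF replicates 1 to 4 it stood at 359, 471, 451 and 458. HFpEF replicate 1 lay inside the Control range, and HFpEF replicates 2, 3 and 4 lay above every Control library. Mean levels were 339.8 ± 31.3 in Control against 434 ± 51.2 in HFpEF (SD over 4 libraries), 1.28 times higher. The log2 fold change was 0.35 with a 95% interval of 0.12 to 0.58 before adjustment. It ranked 1036 of 16313 by p, with an unadjusted edgeR p of 0.0069 and an adjusted p of 0.109, and the exact permutation p was 0.0571.

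Without HFpEF replicate 2 the Vim log2 fold change was 0.32 (edgeR adjusted p = 0.215), close to its value with all libraries. With each library left out in turn it stayed between 0.29 and 0.44. Among the alternatives run, it passed the threshold only without HFpEF replicate 1 (edgeR adjusted p = 0.0426), where 2.02% of genes did so, and with DESeq2 (adjusted p = 0.0213). Over all 16 alternatives the adjusted p ran from 0.0213 to 0.229.

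**Figure D2:**
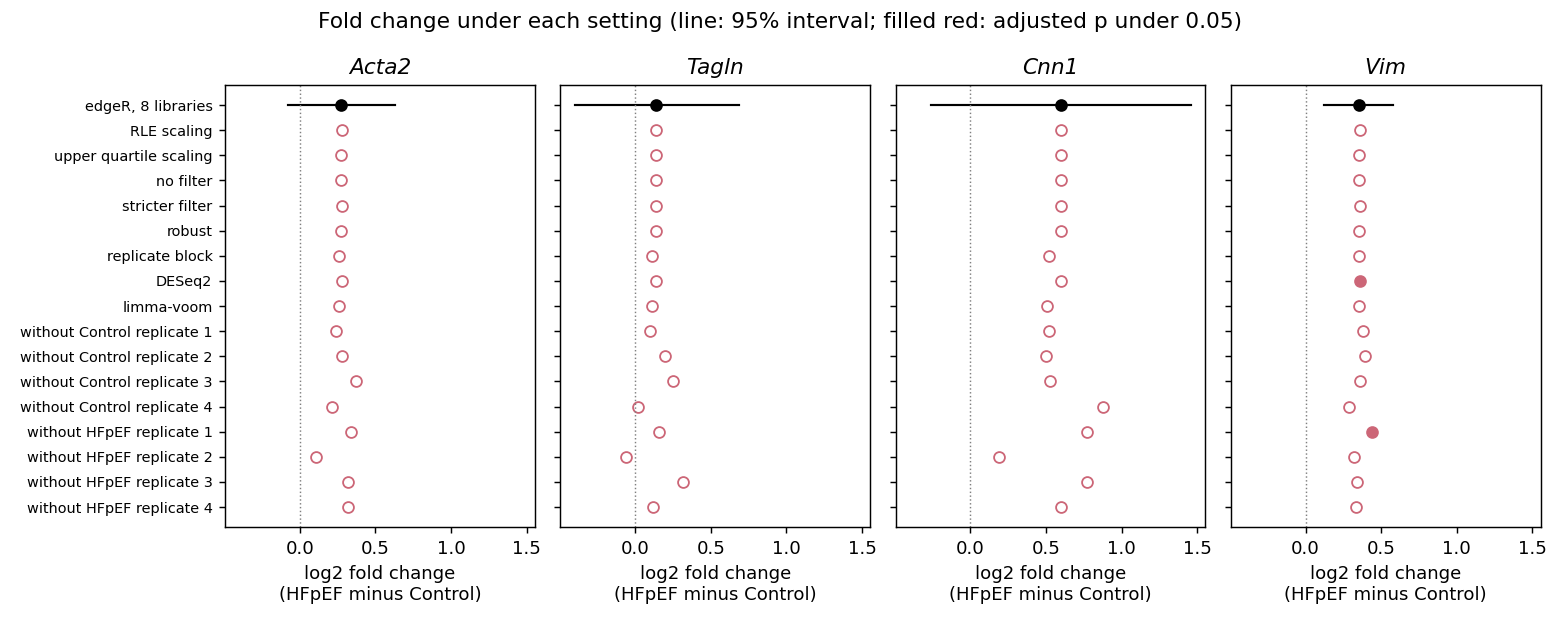
Log2 fold change (HFpEF minus Control, horizontal axis) of Acta2, Tagln, Cnn1 and Vim under each setting (rows); the black point and line are the edgeR estimate from 8 libraries with its 95% interval, open red points are alternatives and filled red points those with an adjusted p under 0.05. Vim stays between 0.29 and 0.44, and the row without HFpEF replicate 2 is the lowest for Acta2, Tagln and Cnn1, with Tagln at -0.06.

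The ratio of 2 genes within a library does not depend on how libraries are scaled, and its difference between groups does not depend on transcript length. Of the 6 pairwise ratios, 0 passed a test for a difference between the groups (exact two-sided permutation tests, unadjusted p from 0.371 to 0.629, Benjamini-Hochberg adjusted p of 0.629 for each). The smallest p these exact permutation tests allow is 0.0286, so 1 ratio alone could not have passed after adjustment. The 6 ratios are made from 4 genes and are not independent. The log2 ratio of Acta2 to Vim averaged -0.94 ± 0.18 in Control against -1.03 ± 0.25 in HFpEF (SD over 4 libraries), a difference of -0.09 (exact permutation p = 0.571). For Tagln to Vim the difference was -0.24 (exact permutation p = 0.514). For Cnn1 to Vim it was 0.17 (exact permutation p = 0.629). These tests show neither that Acta2, Tagln and Cnn1 changed by another amount than the broad marker Vim nor that they changed by the same amount.

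Tagln and Acta2 counts kept close to each other in most libraries. The ratio of their expected counts was 0.948, 1.07, 0.988 and 0.825 in Control replicates 1 to 4. It was 0.962, 0.919, 0.597 and 1.02 in HFpEF replicates 1 to 4. HFpEF replicate 3 stood below the other 7 libraries. There Acta2 was at 195 CPM, near the other HFpEF libraries except replicate 2, and Vim was at 451, while Tagln was at its lowest value of 116. The difference in log2 ratio between the groups was -0.15 (exact permutation p = 0.6), and it was 0.02 without HFpEF replicate 3.

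**Figure D3:**
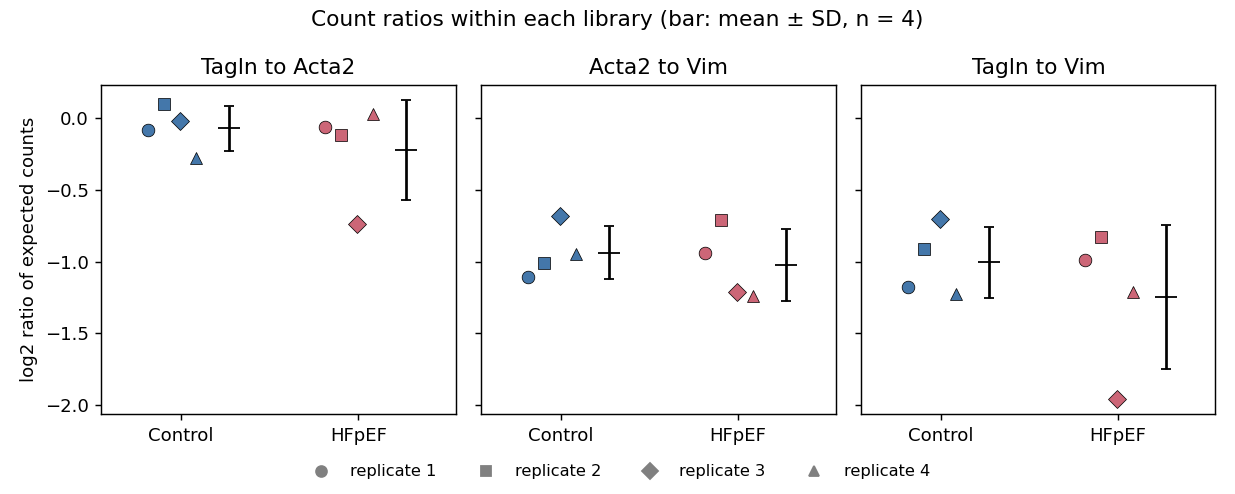
Log2 ratio of expected counts (vertical axis, shared) for Tagln to Acta2, Acta2 to Vim and Tagln to Vim in the Control (blue) and HFpEF (red) libraries; each symbol is a library and the bars show mean ± SD, n = 4. The groups overlap in each panel, and HFpEF replicate 3 is lowest in both ratios with Tagln on top, at -0.74 and -1.96.

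Whether the genes varied together among libraries, beyond any difference between the groups, was examined on log2 CPM with each group's mean subtracted. Over the 8 libraries Tagln and Acta2 had the highest correlation of the 6 pairs, with Pearson's r of 0.78 and Spearman's rho of 0.74. Neither passed an exact permutation test within groups (p = 0.0729 and 0.0694, adjusted p = 0.438 and 0.339 over 6 pairs). On CPM without the log scale r was 0.83, with an exact permutation p of 0.0226 that did not pass after adjustment (adjusted p = 0.135). HFpEF replicates 2 and 3 were the 2 libraries farthest from the median of Tagln after each group's mean was subtracted. Without them r on log2 CPM was 0.94 (exact permutation p = 0.0625, adjusted p = 0.188). HFpEF replicate 3 was also the library with the lowest ratio of Tagln to Acta2, so this choice was not independent of r. Acta2 and Vim had r = 0.51 and rho = 0.67 (exact permutation p = 0.22 and 0.113, adjusted p = 0.598 and 0.339). Without Control replicate 3 and HFpEF replicate 2 their r was 0.74 (exact permutation p = 0.0556, adjusted p = 0.188).

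For the identifier listed as Cnn1, r was 0.43 with Acta2, 0.36 with Tagln and 0.09 with Vim (exact permutation p = 0.411, 0.498 and 0.8; adjusted p = 0.598, 0.598 and 0.8), with rho of 0.19, 0.48 and 0.33 (exact permutation p = 0.738, 0.323 and 0.54). Without Control replicate 4 and HFpEF replicate 2 these r were 0.14, 0.61 and 0.42 (exact permutation p = 0.472, 0.417 and 0.833). Within the Control libraries alone the sign was opposite for each of the 3 pairs, and 4 libraries are too few for a correlation of their own. Control replicate 4 was the lowest library for Acta2 and Vim and the lowest Control library for Tagln, yet the highest Control library for Cnn1. Tagln and Vim had r = 0.35 and rho = 0.52 (exact permutation p = 0.438 and 0.253), and r = 0.62 without HFpEF replicates 2 and 3 (exact permutation p = 0.125).

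**Figure D4:**
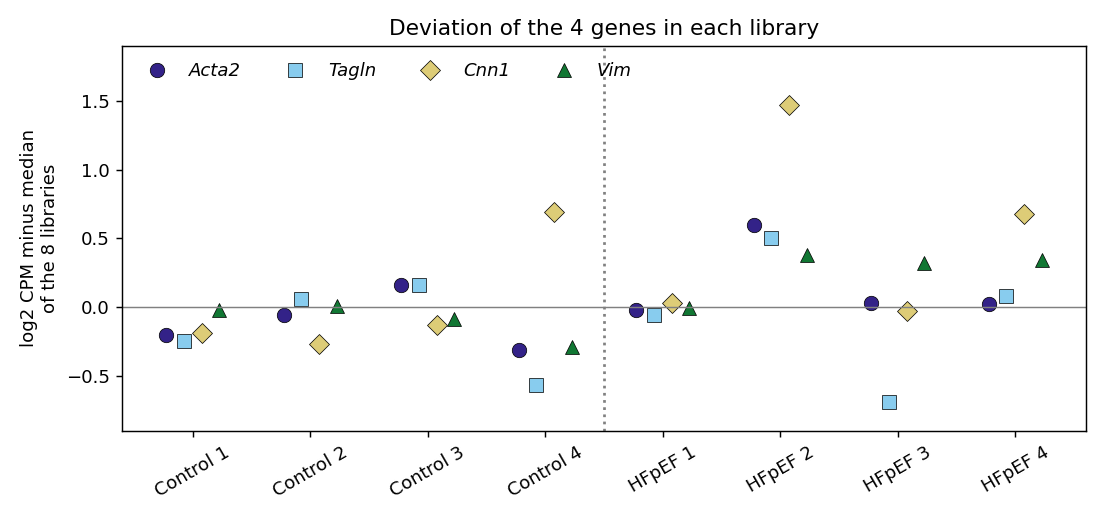
Log2 CPM of Acta2, Tagln, Cnn1 and Vim minus the gene's median over the 8 libraries (vertical axis), by library (horizontal axis); each symbol is 1 gene in 1 library. In HFpEF replicate 2 all 4 genes lie above 0, from 0.38 for Vim to 1.47 for Cnn1, while in Control replicate 4 Cnn1 lies at 0.69 and the other 3 genes below 0.

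Set against the 14305 other genes with a mean of at least 1 CPM, by the same within-group Pearson correlation over 8 libraries, Tagln ranked 367 among the genes most like Acta2, and Acta2 ranked 447 among those most like Tagln. Vim ranked 2170 and Cnn1 ranked 2824 in likeness to Acta2. These ranks describe 8 libraries only. The gene most like Acta2 was ENSRNOG00000055179, with r = 0.986, and the gene most like Vim was ENSRNOG00000050104, with r = 0.99. Each is the highest r picked from 14305 genes over 8 libraries. How high such a top r runs among unrelated genes was not computed. The sets of 5 most alike genes of Acta2 and of Tagln shared 0 genes.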

How the data were processed

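Total RNA of 8 sinoatrial node libraries was depleted of ribosomal RNA before sequencing, per the labels' protocols. The values are expected counts per Ensembl gene that the authors deposited without normalization. Per the submitters' processing notes, Bowtie2 2.1.0, RSEM 1.2.15 and build rn6 were used, with no roles stated; the annotation, read filters and strandedness of the counting are not stated in the labels, so reads of overlapping or antisense genes may not be told apart. No reference table used here carried Ensembl identifiers, so the other gene lists (smooth muscle, fibroblast, TGF-beta and cell type markers) were not run. The 4 genes, the lists and the tests were chosen with earlier results of these data known.

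Counts were rounded, filtered by filterByExpr (99.95% of counts kept), scaled by TMM and tested by edgeR 4.0.16 in R 4.3.3, HFpEF against Control, with p adjusted over 16313 genes. The procedure was tested on simulated data. The test was repeated with DESeq2 1.42.0, with limma-voom (limma 3.58.1), with other scalings and filters, with robust = TRUE, the replicate number as a block, and each library left out. Log2 CPM used a prior count of 1. Counts were taken as whole within 0.005. The genes named were the 4 members, and for the genes of like pattern at most 2 identifiers, those ranked first for Acta2 and Vim.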

Additional observations from a re-analysis of the deposited data

Results flagged for a closer look

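In each of 20 sets of 4 values (the CPM of the 4 genes and 6 log2 ratios, by group) the gap between an end value and its neighbour was compared with the whole range by Dixon's test, which flags about 1 in 20 groups by chance. In 2 sets a library stood apart. For Acta2 in HFpEF the gap was 0.926 of the range, above Dixon's critical value: HFpEF replicate 2 was at 288 normalised CPM and the others between 187 and 195. For Cnn1 in Control the gap was 0.892 of the range: Control replicate 4 was at 2.0 CPM and the others between 1.02 and 1.13. Without Control replicate 4 the Control mean of Cnn1 was 1.08 ± 0.0532 CPM (SD, n = 3).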

How the results depend on the processing

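For the 4 genes, 61 of 64 alternatives kept both the direction and the side of the threshold. Acta2, Tagln and Cnn1 began far from the threshold (edgeR adjusted p = 0.374, 0.796 and 0.425), so their unchanged side says little. Vim passed the threshold with DESeq2 (log2 fold change 0.36, adjusted p = 0.0213) and without HFpEF replicate 1 (0.44, edgeR adjusted p = 0.0426); with each library left out it ran from 0.29 to 0.44. Tagln turned to -0.06 without HFpEF replicate 2 and otherwise reached 0.32. Of the 54 alternatives for the 6 ratios, 2 reversed a sign, none of which passed a test: Cnn1 to Vim was -0.10 without HFpEF replicate 2 (range to 0.46) and Tagln to Acta2 was 0.02 without HFpEF replicate 3 (range from -0.24). None of the 18 alternatives for the correlations changed a sign or a call by adjusted p; unadjusted, Tagln and Acta2 on CPM without the log scale reached an exact permutation p of 0.0226 (r = 0.83, adjusted p = 0.135). The causes were not tested. The background of 316 called genes became 1248 with DESeq2 (856 higher, 392 lower, against 251 and 65), 22 to 332 with 1 library left out, and 6 with the replicate block. The block changed no call among the 4 genes (Vim log2 fold change 0.35, adjusted p = 0.217). Deviations of same-numbered libraries correlated at -0.0635, -0.0712, -0.000237 and -0.374. The same was not computed for libraries of different number, so these values do not decide whether libraries were paired. Same-numbered libraries were treated as unpaired in the main test. Counts were lowest for the identifier listed as Cnn1, at 38 to 110 per library, where counting error alone gave a coefficient of variation of 9.53% to 16.2%, against 35.6% and 53.2% between Control and HFpEF libraries.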
